A study of Mus musculus with 3 samples.

Results

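The cytosolic ribosomal protein genes form the protein part of the ribosome that translates nuclear-encoded mRNA. They were taken by gene symbol as the rows of the matrix whose whole symbol is Rpl or Rps, a number and at most a short ending such as a, x or l, together with the stalk genes Rplp0, Rplp1 and Rplp2 and with Rpsa. This gave 82 of 18545 genes, of which 43 encode large subunit proteins, 31 small subunit proteins, 3 the stalk and 5 paralogues of a core gene. They gave 5684925 of 85078013 UMIs (transcript molecules), or 6.68%, although they are 0.442% of the genes. UMIs per gene ran from 15 for Rpl39l to 150937 for Rpl13, with a median of 69383. Near copies with other endings (Rpl10-ps3, Rpl36a-ps1, Rpl9-ps6 and Rps27rt, with 238 to 1660 UMIs), the S6 kinases and the separate family of mitochondrial ribosomal proteins were not included.

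The libraries came from dissociated retinas of C57BL/6J mice aged 8 weeks. The rd10 mice were dark-reared, while the study's text does not state the rearing of the WT mice of this experiment. WT mice and rd10-vehicle mice received plain chow. The rd10-TMB mice received chow with tamsulosin (T, an alpha-1 adrenergic blocker), metoprolol (M, a beta-1 adrenergic blocker) and bromocriptine (B, a D2-like dopamine receptor agonist). The rd10 mouse carries a mutation in Pde6b, which encodes a subunit of the rod phosphodiesterase, and loses its rods, more slowly when it is reared in the dark. Each group was 1 droplet library, pooled from 1 retina of each of 4 mice per the labels, although a lower number of rd10 mice stands in the study's own text. The rd10 mice were female and the WT pool held both sexes. With 1 library per group no test between groups is possible. All intervals below are exact (Clopper-Pearson for shares, conditional for ratios), at 95%, and cover counting error only, so differences describe these libraries and cannot be told apart from variation between mice or preparations.

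Ribosomal protein mRNAs are among the most abundant in a cell, and the proteins are made in equal numbers because each ribosome holds a single copy of nearly all of them. Most of these mRNAs start with a run of pyrimidines at the very 5′ end, the TOP motif, through which the mTOR pathway and the RNA-binding protein LARP1 raise or lower their translation together. The stalk proteins recruit the elongation factors, and many small subunit proteins line the path of the mRNA. Paralogues such as Rpl22l1 and Rps27l encode close relatives that can stand in for the core protein.

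The starts of 6 genes whose values are described below are shown because a common start sequence is known for mRNAs of this family. Each run is 30 bases, 15 on either side of the annotated start, on the strand of the gene, from RefSeq on GRCm38.p6, with CTTTC in capitals. The windows lie at chr10:128626492-128626521 for Rps26 and chr3:90213634-90213663 for Rps27, both on the minus strand, and at chr7:141447636-141447665 for Rplp2 on the plus strand. They lie at chr5:115559452-115559481 for Rplp0 and chr9:120127751-120127780 for Rpsa on the plus strand, and at chr4:86857353-86857382 for Rps6 on the minus strand.
Rps26: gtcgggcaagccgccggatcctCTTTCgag
Rps27: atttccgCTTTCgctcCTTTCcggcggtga
Rplp2: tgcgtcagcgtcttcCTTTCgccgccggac
Rplp0: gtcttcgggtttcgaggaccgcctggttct
Rpsa: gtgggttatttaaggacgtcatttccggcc
Rps6: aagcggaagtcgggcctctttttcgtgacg

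CTTTC stood in this window in 17 of the 62 genes of the family that had a RefSeq start sequence, or 27.4%, against 4.76% of 27025 genes. The reverse complement stood there in 4.84% of the family and 4.21% of all genes. The hexamer CCGGAA, the core of sites bound by ETS factors, was sought in 300 bases that span the start and lie mostly upstream of it. It was found on the sense strand in 37.1% of the family and 9.33% of all genes, and on the antisense strand in 25.8% and 9.83%. A gene with several annotated starts counted when any of them held the letters. The windows of Rplp0, Rpsa and Rps6 held no CTTTC. That of Rps6 nevertheless held a run of pyrimidines, cctctttttc, across the annotated start. CTTTC is a fixed string of letters and was counted at any place in the window. Its share is therefore not the share of genes with a TOP motif, and pyrimidine runs at the start were not counted.

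The 3 libraries held 4478 to 5952 cells with a median of 3510 to 4812 UMIs per cell, and 25 cell barcodes were shared between libraries. Cell classes were the authors' deposited clusters, named from marker genes. The Müller glia (MG)-like cluster raised 11 of 11 MG markers, the rod-like and cone-like clusters 10 of 10 markers each, the rod bipolar (RBC)-like cluster 8 of 8 and the ON cone bipolar-like cluster 7 of 9. The endothelial-like cluster raised 7 of 8 endothelial but also 8 of 8 pericyte markers. Clusters 6 and 10 carried no clear identity and are given by number.

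Over whole libraries the family share was lowest in WT at 5.65%, followed by rd10-vehicle at 6.86% and rd10-TMB at 7.13%. Its share ranged more widely between cell classes. In WT, cone-like cells had the lowest share of the 10 classes with at least 50 cells in each library, 4.07% (4.04 to 4.11), and endothelial-like cells the highest, 9.23% (9.18 to 9.28). Between them came amacrine-like cells at 4.52%, rod-like cells at 4.76%, ON cone bipolar-like cells at 5.31%, and MG-like, RBC-like and cluster 6 cells at 5.85%, 5.87% and 5.88%. The intervals of these last 3 overlapped. Cluster 10 had 6.03% and OFF cone bipolar-like cells 6.06%, again with overlapping intervals. Among smaller classes, astrocyte-like cells lay below endothelial-like cells in each library, at 8.51%, 8.67% and 8.88% in WT, rd10-vehicle and rd10-TMB, and microglia-like cells lay above them. The 52 rd10-vehicle and 30 rd10-TMB microglia-like cells had 14.1% and 16%, and the 6 microglia-like cells in WT had 13.8%.

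**Figure D1:**
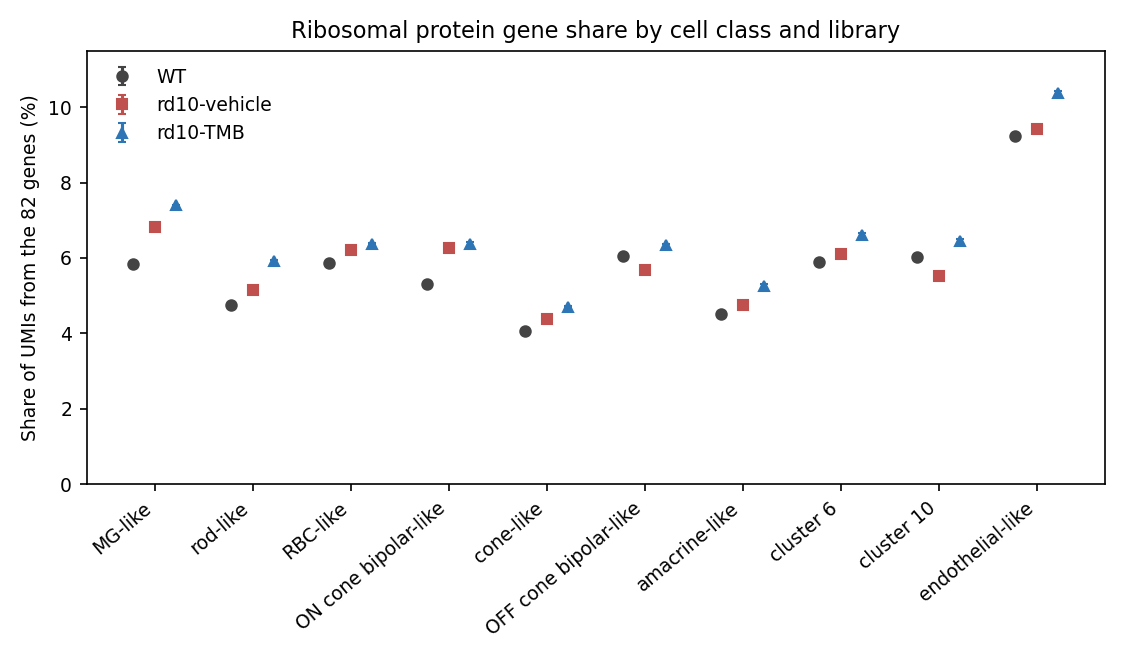
Share of all UMIs that came from the 82 genes (y axis, percent) in 10 cell classes (x axis), one point per library, with exact 95% intervals for counting error that are mostly smaller than the symbols. The rd10-TMB point is the highest of the 3 in every class shown, and cone-like cells are lowest and endothelial-like cells highest in every library.

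MG, the main retinal glia, were the largest class over the 3 libraries together, with 530 WT, 2492 rd10-vehicle and 1748 rd10-TMB cells. In WT alone the largest class was rod-like, with 1180 cells. The family share of MG-like cells was 5.85% for WT, 6.83% for rd10-vehicle and 7.4% in rd10-TMB. Set over WT, the ratio of rd10-vehicle was 1.17-fold, or 0.22 on the log2 scale (0.22 to 0.23), and rd10-TMB over rd10-vehicle was 1.08-fold, or 0.11 (0.11 to 0.12). Both ratios use the rd10-vehicle library, so they are not independent. In single cells the median share was 5.20% (quartiles 3.4 to 7.55) in WT, 6.76% (5.65 to 7.84) in rd10-vehicle and 7.29% (5.94 to 8.60) in rd10-TMB, so the spread within a library was larger than the step between libraries.

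Depth moved in the same order in MG-like cells, with median UMIs per cell of 6300, 8594 and 9455 for WT, rd10-vehicle and rd10-TMB. The share of UMIs from the nuclear RNA Malat1 moved the other way, at 8.87%, 6.46% and 5.72%. The summed CPM of immediate early genes, which also respond to dissociation, was 16975, 25721 and 25513. Among MG-like cells with 5000 to 10000 UMIs the family took 5.96% in 319 WT cells, 6.71% in 1548 rd10-vehicle cells and 6.98% in 793 rd10-TMB cells, so the order held while the log2 ratios became 0.17 and 0.06. Among cells with 2000 to 5000 UMIs the shares were 4.90%, 6.78% and 10.0%. The part of depth, Malat1 and early genes in these ratios was not tested.

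Cells with little ribosomal protein mRNA were unequally spread over the libraries, and not in the same order in every class. Cells with a share below 2.5% made up 14.5% (11.6 to 17.8) of WT MG-like cells, 0.522% of rd10-vehicle and 0.801% of rd10-TMB. In WT these 77 cells had a median mitochondrial share of 0.716%, a median Malat1 share of 16.4% and a median of 4027 UMIs, against 6.17%, 8.32% and 6697 UMIs in the other WT MG-like cells. In ON cone bipolar-like cells 38.1% (33.2 to 43.1) of WT, 11.8% of rd10-vehicle and 16.6% of rd10-TMB cells lay below 2.5%. There the low cells had a high mitochondrial share, with medians of 14.2%, 14.9% and 15.9% against 6.33%, 5.93% and 6.20% in the others. In amacrine-like cells 47.5%, 30.5% and 32.5% of cells lay below the limit. RBC-like cells held few of them, 2.22%, 0.412% and 2.94%. WT was the lowest library in cone-like cells, with 6.83%, 8.86% and 9.47% for WT, rd10-vehicle and rd10-TMB, and cluster 10 had 4.18%, 10.3% and 1.63%. The limit of 2.5% was chosen after the distribution over cells was seen, and the part of these cells in the ratios was not tested.

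**Figure D2:**
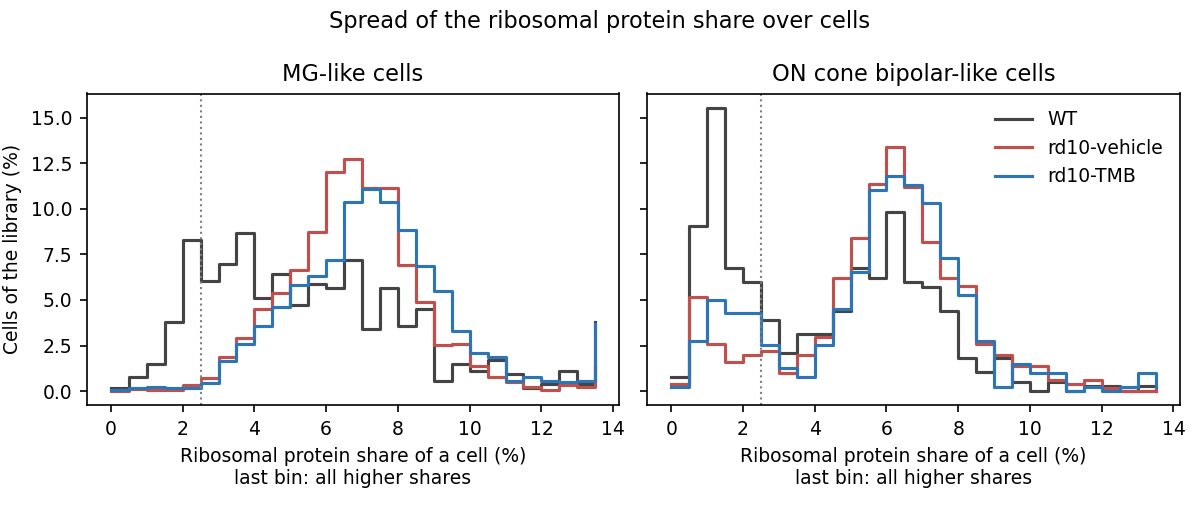
Percent of the cells of a library (y axis) by the ribosomal protein share of the cell (x axis, in steps of 0.5%, with the last step holding all higher shares), for MG-like cells on the left and ON cone bipolar-like cells on the right. The dotted line marks 2.5%. Below the line lie 14.5% of WT MG-like cells, at the low end of 1 broad distribution, and 38.1% of WT ON cone bipolar-like cells, which have a separate peak there.

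In the other main classes the rd10-vehicle over WT log2 ratio of the summed family was 0.12 in rod-like cells (4.76% to 5.16%), 0.08 in RBC-like cells (5.87% to 6.21%), 0.24 in ON cone bipolar-like cells (5.31% to 6.27%) and 0.11 in cone-like cells (4.07% to 4.39%). Of 10 clusters with at least 50 cells in each library, 7 had an interval above no change and 3 below it. The 3 were clusters 7 and 8, the OFF cone bipolar-like cells, and cluster 10. The ON cone bipolar-like value was 0.09 when cells above a mitochondrial share of 10% were left out and 0.47 when the shares of single cells were averaged. The rod-like value turned to -0.17 in cells with at least 1000 detected genes. In amacrine-like cells the ratio was 0.07 and in endothelial-like cells 0.03, and without the cells above a mitochondrial share of 10% these became -0.024 and -0.019. The pair of clusters pooled as amacrine-like went opposite ways, at 0.24 in cluster 5 and -0.15 in cluster 9.

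When rd10-TMB was set over rd10-vehicle, all 10 clusters had an interval above no change, from 0.02 in ON cone bipolar-like cells to 0.22 in cluster 10. The ratio was 0.20 in rod-like cells (5.16% to 5.91%), 0.04 in RBC-like cells (6.21% to 6.38%), 0.10 in cone-like cells (4.39% to 4.69%), 0.15 in OFF cone bipolar-like cells (5.69% to 6.34%) and 0.14 in endothelial-like cells (9.43% to 10.4%). The ON cone bipolar-like value was -0.019 when the shares of cells were averaged and -0.016 when each cell was thinned to 1000 UMIs. The Malat1 share was below that of rd10-vehicle in all 10 clusters of rd10-TMB, for example 6.39% and 5.61% in rod-like, 4.08% and 3.3% in RBC-like and 5.1% and 3.94% in cone-like cells for rd10-vehicle and rd10-TMB. Median UMIs were higher in 9 of 10 clusters and the summed CPM of rod markers in 10 of 10. The part of these in the ratios was not tested. Since each group is 1 library, a shift shared by all clusters cannot be told apart from a difference between the libraries themselves.

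Single genes were compared as CPM, the UMIs of the gene per 1000000 UMIs of the class. A gene was called higher or lower where its log2 ratio reached 0.32 in either direction with at least 200 UMIs over the pair of libraries. A call takes no interval into account. All genes were held to the same minimum but were not matched to the family for depth. In MG-like cells 20 of 81 ribosomal protein genes that passed the minimum (24.7%) were called higher in rd10-vehicle than in WT, beside 14% of all genes tested, and 0 were called lower, beside 17.5% of all genes. The median log2 ratio of the family was 0.21 and that of all genes -0.05, and 76 of 81 were above 0. From rd10-vehicle to rd10-TMB 1 of 81 was called higher, beside 2.38% of all genes, and 0 lower, beside 4.57%, with a median of 0.13 against -0.02 for all genes. Most genes of the family stayed within the limit in both comparisons.

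By role in MG-like cells, 10 of 43 large subunit, 7 of 31 small subunit and 2 of 3 stalk genes were called higher in rd10-vehicle than in WT, with medians of 0.19, 0.24 and 0.35. Rplp0, the protein that anchors the stalk, had the largest ratio. It measured 499 CPM in WT, against 827 in rd10-vehicle and 777 in rd10-TMB, and rd10-vehicle over WT was 0.73 on the log2 scale (0.66 to 0.80). Rplp1, a stalk tip protein, measured 1581, 2012 and 2184 CPM (0.35), and Rplp2, its partner, 491, 566 and 649 CPM (0.20). The WT library was the lowest of the 3 for each stalk gene, and Rplp0 alone among them stood below rd10-vehicle in rd10-TMB.

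Rpsa, a small subunit protein also known as the laminin receptor, measured 372, 578 and 520 CPM in WT, rd10-vehicle and rd10-TMB, a rd10-vehicle over WT log2 ratio of 0.64 (0.55 to 0.72). Rps4x, an X-linked small subunit gene, measured 667, 980 and 936 CPM (0.55), and Rps20 664, 908 and 1008 CPM (0.45). Over the alternatives tried, Rplp0 stayed between 0.63 and 0.86, Rpsa between 0.58 and 0.72, Rps4x between 0.49 and 0.67 and Rps20 between 0.39 and 0.61, all above the limit for a call. The calls of Rplp1 (lowest 0.314), Rpl10 (0.316), Rpl22 (0.318) and Rpl22l1 (0.284) in MG-like cells ended under at least 1 alternative. The lowest 4 of the family were all close to no change. Rps15, a small subunit protein needed for the late assembly of that subunit, measured 733, 693 and 830 CPM (-0.08). Rps23, part of the decoding centre, measured 1208, 1152 and 1447 CPM (-0.07), Rpl31 382, 367 and 428 CPM (-0.06) and Rps25 530, 522 and 595 CPM (-0.02).

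Between the rd10 libraries in MG-like cells, Rps23 had the highest ratio, 0.33 (0.30 to 0.35), and was the gene called higher, a call that ended at 0.307 when cells above a mitochondrial share of 10% were left out. Rpl34 followed with 669, 682 and 845 CPM (0.31), Rpl36 with 591, 591 and 728 CPM (0.30) and Rpl30 with 937, 1058 and 1296 CPM (0.29). In all 4 the rd10-TMB library was the highest of the 3. At the other end stood Rpl7l1 (70.2, 80.8 and 71.5 CPM, -0.17), Rpsa (-0.15), Rps29 (1656, 1861 and 1729 CPM, -0.11) and Rplp0 (-0.09). Rps6, the substrate of the S6 kinases, measured 449, 550 and 544 CPM, with log2 ratios of 0.29 and -0.01. Rps27a, made as a fusion with ubiquitin, measured 1458, 1661 and 1854 CPM, with ratios of 0.19 and 0.16.

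**Figure D3:**
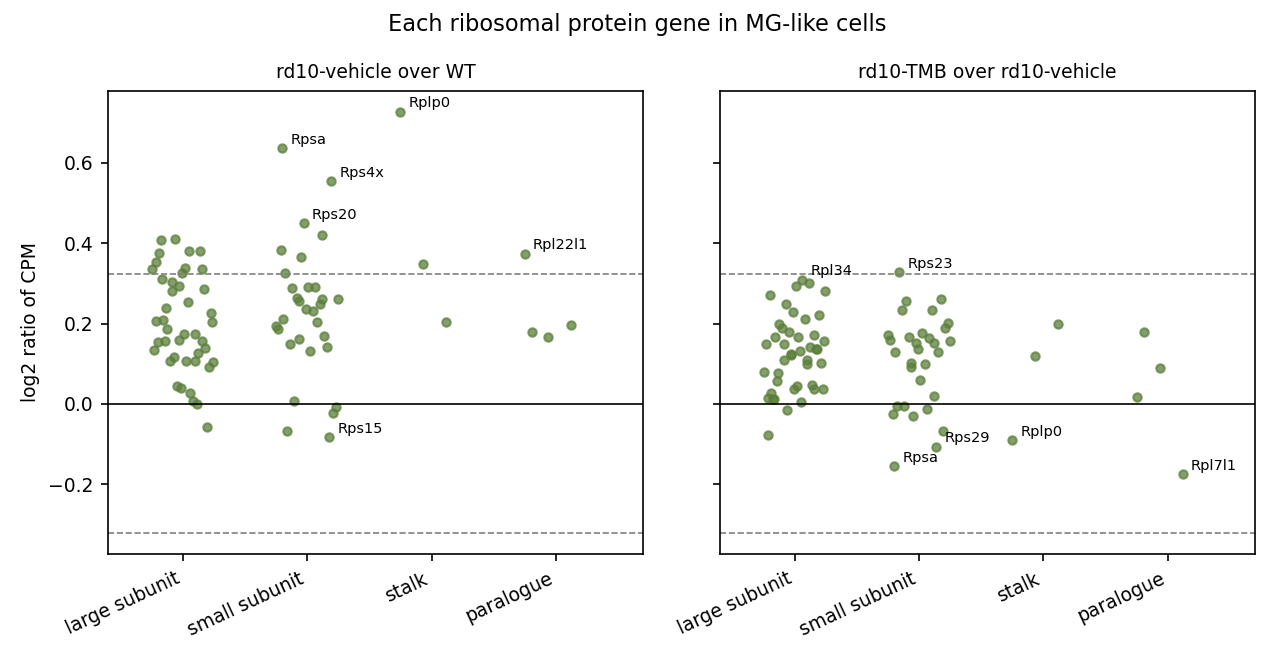
Log2 ratio of CPM (y axis) of each of the 81 ribosomal protein genes with at least 200 UMIs in MG-like cells, by role (x axis), for rd10-vehicle over WT on the left and rd10-TMB over rd10-vehicle on the right. Dashed lines mark the limit of 0.32 for a call. Most points lie above 0 in both panels, 20 pass the upper line on the left and 1 on the right, and none passes the lower line.

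In rod-like cells 4 of 79 genes were called higher in rd10-vehicle than in WT, beside 11.6% of all genes, and 0 lower, beside 17.4%. From rd10-vehicle to rd10-TMB 14 of 79 were called higher, beside 6.22%, and 0 lower, beside 5.39%. Rpl10, an X-linked large subunit gene added late in assembly, measured 166 CPM in WT, against 254 in rd10-vehicle and 271 in rd10-TMB, a first ratio of 0.62 (0.36 to 0.87). Rps24 measured 1019, 1380 and 1527 CPM (0.44), but 0.127 in cells with at least 1000 detected genes, which ends its call. Rps26, which lies at the mRNA exit channel, was lowest in rd10-vehicle, with 329, 277 and 435 CPM and ratios of -0.25 and 0.65. Rpl31 measured 214, 181 and 223 CPM, with a first ratio of -0.23. Rpl36a measured 160, 161 and 217 CPM, with a second ratio of 0.42 that fell to 0.17 under an alternative, below the limit for a call. Rpsa and Rps29 were the lowest of the second comparison at -0.03 and -0.10.

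In RBC-like cells, from WT to rd10-vehicle 0 of 81 genes were called higher, beside 6.36% of all genes, and 0 lower, beside 5.04%. Between the rd10 libraries 3 of 81 were called higher, beside 2.57%, and 0 lower, beside 3.56%. Rps9 (642, 768 and 757 CPM, 0.26) and Rpsa (690, 814 and 767 CPM, 0.24) were highest in the first comparison, and Rpl35a (995, 924 and 990 CPM, -0.11) and Rpl31 (291, 273 and 317 CPM, -0.09) lowest. Rps26 (386, 379 and 480 CPM, 0.34) and Rpl7l1 (49.9, 49.7 and 63.0 CPM, 0.34) were highest in the second. The interval of Rpl7l1, 0.00 to 0.68, rested on 130 and 170 UMIs, and its call ended at 0.227 under an alternative. Rps29 (1620, 1667 and 1463 CPM, -0.19) and Rpl6 (790, 913 and 811 CPM, -0.17) were lowest.

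In ON cone bipolar-like cells 20 of 79 genes were called higher in rd10-vehicle than in WT, beside 11.8% of all genes, and 0 lower, beside 12%. Cells with a family share below 2.5% made up 38.1% of the WT and 11.8% of the rd10-vehicle cells of this class. Their part in these calls was not tested. In rd10-TMB against rd10-vehicle 0 were called higher, beside 3.91%, and 0 lower, beside 3.07%. Rps4x led the first comparison with 619, 942 and 828 CPM (0.60), followed by Rpl29 with 394, 557 and 520 CPM (0.50). Rpl38 (761, 734 and 678 CPM, -0.05) and Rpl22l1 (319, 313 and 365 CPM, -0.03) were lowest. Rps26 (382, 395 and 474 CPM, 0.26) and Rpl31 (248, 257 and 306 CPM, 0.25) led the second. Rpl12, at the base of the stalk, measured 419, 572 and 485 CPM (-0.24) and was lowest there, followed by Rps4x (-0.19).

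In cone-like cells 6 of 80 genes were called higher in rd10-vehicle than in WT, beside 7.23% of all genes, and 0 lower, beside 10.3%. From rd10-vehicle to rd10-TMB 4 of 80 were called higher, beside 4.47%, and 0 lower, beside 4%. The shares of the family called higher were thus near those of all genes in this class. Rpl10 (221, 313 and 328 CPM, 0.50) and Rps2 (407, 570 and 547 CPM, 0.48) led the first comparison, and Rplp2 (441, 389 and 456 CPM, -0.18) and Rps25 (543, 482 and 517 CPM, -0.17) were lowest. Rpl27 (498, 488 and 634 CPM, 0.38) and Rps26 (256, 239 and 310 CPM, 0.38) led the second, with calls that ended under alternatives at 0.267 and 0.282, and Rpl6 (609, 671 and 593 CPM, -0.18) and Rps29 (992, 1058 and 963 CPM, -0.14) were lowest. Over the 5 main classes, 50 of 400 pairs of a family gene and a class (12.5%) were called higher in rd10-vehicle than in WT, near the 11.1% of pairs over all genes. In cells with a mitochondrial share between 2% and 10% it was 24 of 399 (6.02%), beside 11.2% over all genes. When the shares of cells were averaged it was 97 of 400 (24.2%), beside 13.9%. From rd10-vehicle to rd10-TMB 22 of 400 (5.5%) were called higher, beside 3.23% over all genes.

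The WT pool held both sexes, so the X-linked genes were also compared with those WT cells that carried the female X-inactivation transcript and no Y-linked UMI. In the 245 such MG-like cells the rd10-vehicle over WT ratio of Rps4x was 0.67 beside 0.55 with all WT cells, and that of Rpl10 0.55 beside 0.33. In 483 rod-like cells Rpl10 had 0.71 beside 0.62. In 177 ON cone bipolar-like cells Rps4x had 0.64 beside 0.60, while Rpl10 had 0.30 beside 0.39. In 126 cone-like cells Rps4x had 0.22 beside 0.33, and in rod-like cells Rpl36a had 0.37 beside 0.02. Rpl36a in cone-like cells had 0.29 beside 0.40, and Rpl39 in MG-like cells 0.37 beside 0.25. Of these, Rpl10 in ON cone bipolar-like cells and Rps4x and Rpl36a in cone-like cells went below the limit of 0.32 for a call, and Rpl36a in rod-like and Rpl39 in MG-like cells went above it. The summed family of MG-like cells also moved with these WT cells, from 0.22 to 0.35. No rd10 cell was filtered in this way, and WT cells in which the transcript was not detected were left out. The shifts of this paragraph therefore cannot be told apart from a choice of WT cells by depth, and the part of sex in them was not tested.

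A gene's share of the family's own UMIs does not depend on how the class total is scaled. It was counted as higher or lower in a cluster where its interval lay wholly on that side of no change. The ranges of log2 ratios given cover all 10 clusters. For rd10-vehicle over WT, 6 of 78 genes measured in all 10 clusters had a higher share in 5 or more clusters and 5 a lower one, while the median gene was higher in 1 cluster and lower in 1. Rpl13, a large subunit protein, was higher in 9 of 10 clusters, with log2 ratios of 0.09 to 0.22. It took 2.47% of the family in MG-like cells of WT and 2.66% in rd10-vehicle, and 2.85% and 3.33% in cluster 10. Rpsa was higher in 8 of 10 clusters, from 0.06 to 0.41. Rps4x and Rps9 were higher in 6 each, and Rps23 was lower in 6, from -0.29 to -0.01. Near-identical processed copies exist for many of these genes, and reads that match several copies may have been dropped by the authors' counting, so levels are less certain than ratios.

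Between rd10-vehicle and rd10-TMB, clusters were counted in the same way, by intervals, and ranges again cover all 10 clusters. Of 75 genes measured in all 10 clusters, 3 had a higher share in 5 or more clusters and 7 a lower one. The median gene was higher in 1 and lower in 0. Rps29, a small zinc-binding protein of the small subunit head, was lower in 9 of 10 clusters, with ratios of -0.30 to -0.13. It took 2.83% of the family in WT MG-like cells, 2.72% in rd10-vehicle and 2.34% in rd10-TMB. The same gene took 2.76%, 2.68% and 2.29% in RBC-like cells and 2.43%, 2.41% and 2.05% in cone-like cells, so rd10-TMB was the lowest library in each. Rpl6 was lower in 7 of 10 clusters (-0.27 to -0.12) and Rpsa in 6 (-0.27 to 0.02). Rps26 was higher in 6 of 10 (-0.04 to 0.46), with 0.61% of the family in rd10-vehicle and 0.753% in rd10-TMB RBC-like cells. Rpl36 was higher in 6 and Rpl30 in 5. Genes of this paragraph outside the fixed naming rule were chosen after their values were seen.

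**Figure D4:**
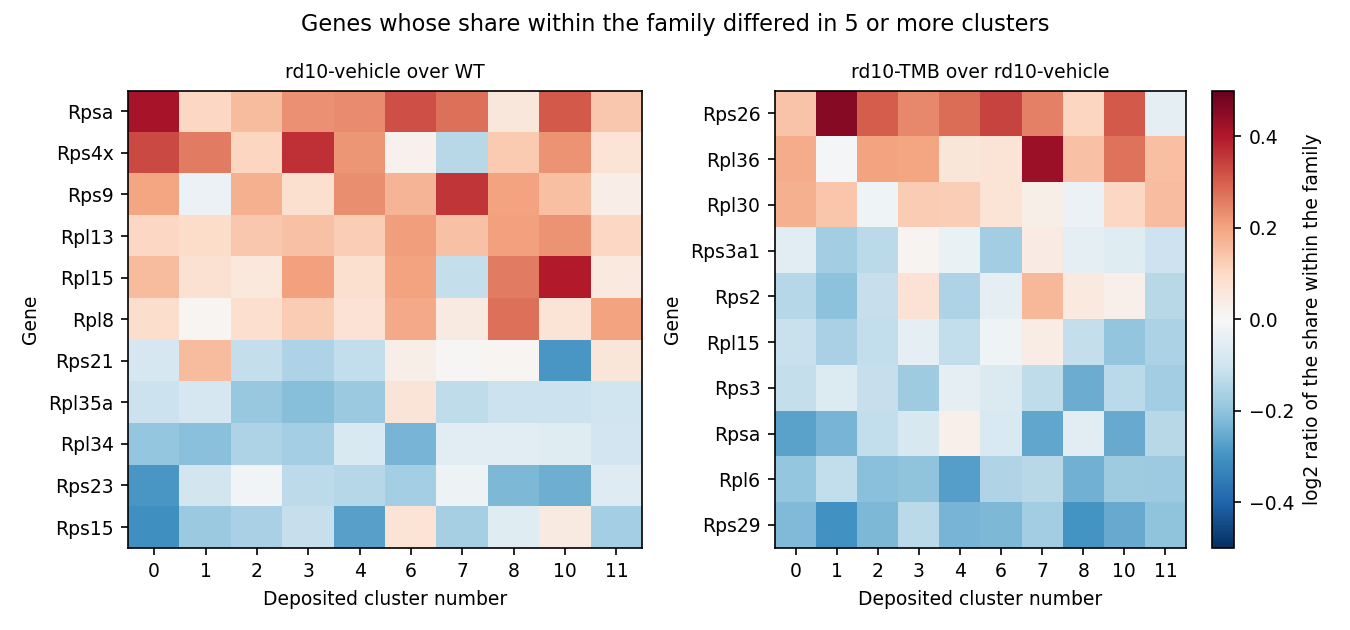
Log2 ratio of a gene's share within the family (colour, scale from -0.5 to 0.5) for the genes (rows) whose interval lay on one side of no change in 5 or more of 10 deposited clusters (columns), for rd10-vehicle over WT on the left and rd10-TMB over rd10-vehicle on the right. Rpl13 is higher in 9 clusters on the left and Rps29 lower in 9 on the right.

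Within WT the makeup of the family also differed between cell classes. Over 10 classes the median range of a gene's share was 0.58 on the log2 scale among 81 genes with at least 200 UMIs in WT, 31 genes ranged by less than 0.5 and 11 by more than 1. Shares here carry 1 added UMI. Rps27l, a paralogue known as a p53 target, ranged most, by 2.16, from 0.0591% of the family in amacrine-like cells to 0.265% in MG-like cells. Rpl22l1 ranged by 1.44, from 0.313% in endothelial-like to 0.849% in amacrine-like cells. Rps19, a small subunit gene affected in Diamond-Blackfan anaemia, ranged by 1.40, with 0.562% in cone-like and 1.48% in endothelial-like cells. Rpsa ranged by 1.36, with 0.636% in MG-like and 1.63% in rod-like cells. Rpl10a ranged by 1.31, with 0.62% in endothelial-like and 1.53% in rod-like cells.

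Of 8 paralogues listed, Rpl3l, Rpl10l and Rps4l had no row in the matrix. The other 5 were set beside their parent genes as the paralogue's share of the UMIs of the pair. Tags at the 3′ end may be captured unequally for the pair, so these shares are compared between classes and not read as molar amounts. Rpl22l1 made up 71.5% (69.2 to 73.7) of the Rpl22l1 and Rpl22 UMIs in WT amacrine-like cells, 61.7% in ON cone bipolar-like, 46.2% in MG-like, 37.5% in rod-like and 32.6% (30.0 to 35.3) in endothelial-like cells. The order of amacrine-like over MG-like over endothelial-like cells was the same in rd10-vehicle (66.7%, 46.8% and 30.6%) and in rd10-TMB (76.3%, 44.1% and 30.7%). In MG-like cells Rpl22l1 itself measured 299 CPM in WT, against 387 in rd10-vehicle and 392 in rd10-TMB, and Rpl22 348, 440 and 496 CPM. Both reached the limit for a call in rd10-vehicle over WT (0.37 and 0.34), and both calls ended under an alternative, at 0.284 and 0.318.

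Rps27l made up 16.1% of the Rps27l and Rps27 UMIs in WT MG-like cells, 15.9% in rd10-vehicle and 16% in rd10-TMB, and 14.7%, 15.1% and 15% in cone-like cells. It made up 5.86% in WT amacrine-like and 9.18% in WT RBC-like cells. Rps27l and Rps27 measured 155 and 806 CPM in WT MG-like cells, 175 and 929 in rd10-vehicle and 198 and 1042 in rd10-TMB. Rpl36al took 39.6% of its pair with Rpl36a in WT MG-like cells and 58.5% in WT cone-like cells, and 39.8% and 51.7% in rd10-vehicle. Rpl7l1, whose product is found in ribosome precursors, took 5.96%, 6.13% and 5.05% of its pair with Rpl7 in MG-like cells of WT, rd10-vehicle and rd10-TMB, and Rpl7 itself measured 1107, 1236 and 1346 CPM. Rpl39l, known from male germ cells, had 0 UMIs in MG-like, rod-like and cone-like cells of all 3 libraries, which in MG-like cells allows up to 0.213%, 0.0267% and 0.0323% of its pair (exact 95% limits), while its parent Rpl39 measured 521, 621 and 681 CPM in MG-like cells. Rpl3, the parent of a muscle paralogue with no row here, measured 655, 869 and 876 CPM in MG-like cells, with a first ratio of 0.41.

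**Figure D5:**
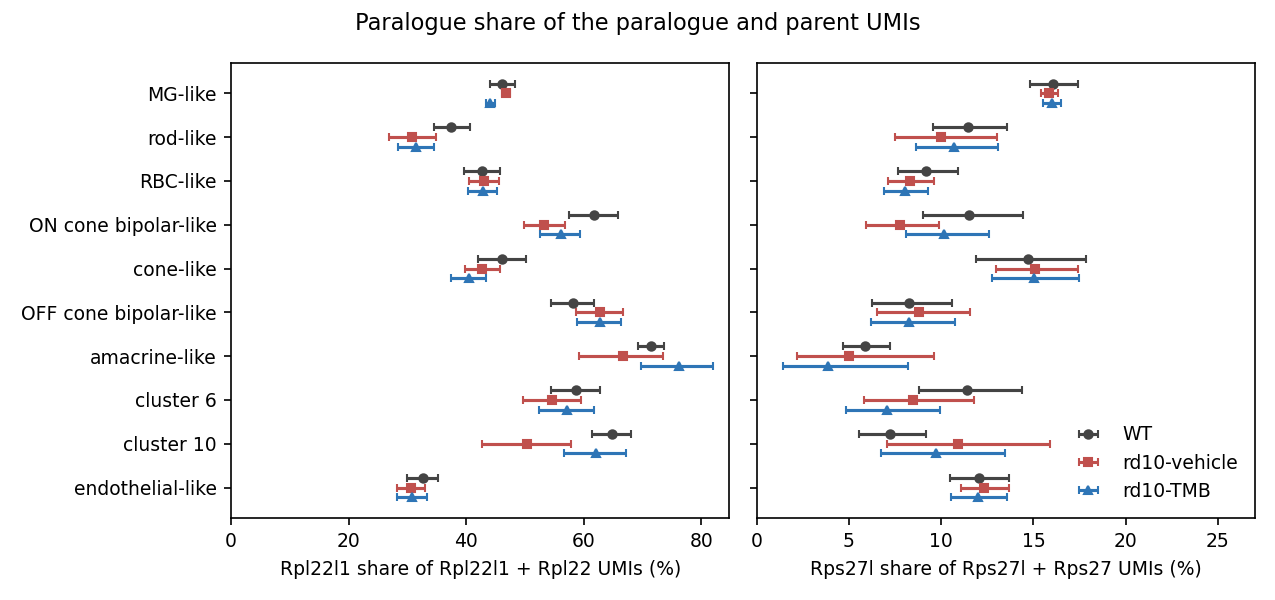
Share of the paralogue in the UMIs of paralogue plus parent (x axis, percent) for Rpl22l1 with Rpl22 on the left and Rps27l with Rps27 on the right, by cell class (y axis) and library, with exact 95% intervals for counting error. Rpl22l1 is highest in amacrine-like cells, whose interval overlaps those of OFF cone bipolar-like and cluster 6 cells in rd10-vehicle. It is lowest in endothelial-like cells, whose intervals overlap those of rod-like cells in every library. Rps27l is highest in MG-like and cone-like cells.

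Lcn2 encodes a secreted protein known from reactive glia. In rd10-vehicle the 653 MG-like cells with an Lcn2 UMI had a family share of 7.02% (7.01 to 7.04) and the 1839 without one 6.74% (6.72 to 6.75). In rd10-TMB the 300 cells with and 1448 without Lcn2 had 7.5% (7.47 to 7.52) and 7.37% (7.35 to 7.38). Cells with Lcn2 were deeper, with median UMIs of 10153 against 8175 and 11722 against 9065. Thinned to 1000 UMIs per cell, the shares were 7.03% and 6.78% in rd10-vehicle but 7.48% and 7.63% in rd10-TMB, so the order turned in the latter. In WT 9 cells carried Lcn2.

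Genes around the family were taken from fixed lists. Of 18 translation genes outside the symbol rule, 3 were called higher in rd10-vehicle than in WT in MG-like cells and 0 lower, with a median of 0.16. That is 16.7% of the list called higher, near the 14% of all genes. The 3 were Tpt1 (2335, 3360 and 3334 CPM, 0.53), the elongation factor Eef1a1 (1099, 1491 and 1481 CPM, 0.44) and Rack1, a scaffold on the small subunit (321, 423 and 397 CPM, 0.40), all known TOP mRNAs. In rd10-TMB against rd10-vehicle the list median was -0.01, near the -0.02 of all genes. Of 27 ribosome biogenesis genes tested, 4 were called higher in rd10-vehicle than in WT and 0 lower, namely Nop2 (5.72, 10.5 and 10.2 CPM, 0.81), Nhp2 (30.7, 43.1 and 38.9 CPM, 0.48), Bysl (0.43) and Polr1c (0.34). The list median was 0.13, and the 14.8% called higher was near the 14% of all genes. Between the rd10 libraries 0 of 27 were called higher and 2 (7.41%, beside 4.57% of all genes) lower, Bysl (9.04, 12.5 and 9.54 CPM, -0.39) and Mybbp1a (31.3, 33.3 and 26.0 CPM, -0.36), with a list median of -0.08.

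Of 13 mTOR and TOP regulators tested in MG-like cells, 1 was called higher in rd10-vehicle than in WT and 2 lower, or 7.69% and 15.4% beside 14% and 17.5% of all genes. Eif4ebp1, which holds back cap-dependent translation until mTOR phosphorylates it, measured 18.1 CPM in WT, against 33.7 in rd10-vehicle and 35.2 in rd10-TMB (0.88). Ddit4, an inhibitor of mTOR, measured 267, 96.9 and 93.8 CPM (-1.46), and Rps6kb2, an S6 kinase, 18.1, 10.8 and 12.9 CPM (-0.77). None of 14 was called for rd10-TMB over rd10-vehicle. Of 76 mitochondrial ribosomal protein genes tested, 6 (7.89%, beside 14% of all genes) were called higher in rd10-vehicle than in WT and 1 lower (1.32%, beside 17.5%), with a median of 0.08, led by Mrps6 (54.2, 107 and 94.6 CPM, 0.97), Mrpl14 (0.56) and Mrpl39 (0.47). From rd10-vehicle to rd10-TMB 1 of 78 (1.28%, beside 2.38% of all genes) was called higher, Mrps21 (0.33), and 1 (1.28%, beside 4.57%) lower, Mrps27 (-0.35), with a median of -0.02, the same as that of all genes.

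From WT to rd10-vehicle, 5 of 15 translation genes and 11 of 33 mitochondrial ribosomal protein genes (33.3% each) were called higher in ON cone bipolar-like cells, beside 11.8% of all genes. In rod-like cells 5 of 16 (31.3%) and 7 of 27 (25.9%) were called higher, beside 11.6%. The lists were not run under the alternatives, and the summed family ratio of both these classes depended on the cell filter. RBC-like cells had 1 of 18 and 4 of 55 (5.56% and 7.27%, beside 6.36%), and cone-like cells 0 of 16 and 4 of 52 (7.69% for the latter, beside 7.23%). From rd10-vehicle to rd10-TMB, 6 of 57 mitochondrial ribosomal protein genes (10.5%) were called higher in cone-like cells, beside 4.47% of all genes, and 1 was called lower. In rod-like cells 1 of 21 genes of this list (4.76%, beside 6.22% of all genes) was called higher and 0 lower. In RBC-like cells 1 of 65 was called higher (1.54%, beside 2.57%) and 1 lower (1.54%, beside 3.56%). ON cone bipolar-like cells had 1 of 39 higher (2.56%, beside 3.91%) and 1 lower (2.56%, beside 3.07%). The translation list had 0 calls in either direction in these classes and in cone-like cells. The biogenesis and mTOR lists had at most 13 genes tested in any of these classes.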

How the data were processed

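Dissociated retinal cells of 3 pooled libraries were profiled by 10x Genomics v3 droplets. Reads were mapped by the authors with Cell Ranger 6.0.1 on mm10. They then removed doublets with Scrublet, kept cells with at least 500 genes and clustered the cells with Seurat 3.2.2 after Harmony correction. Values of the deposited matrix are on a natural log scale, as ln(1 + UMIs per 10000 in that cell), and the deposited cell table gives UMI counts per cell, detected gene counts, library and cluster. Multiplying back gave whole UMIs within 0.001 for 100% of 32620606 entries, and the sums matched the deposited totals in 15242 of 15242 cells. Python 3.11.15 with numpy 2.4.6, scipy 1.17.1 and pandas 2.3.3 was used, and no cell was removed or doublet called again.

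UMIs were summed per class and library. Shares carry Clopper-Pearson and ratios exact conditional intervals, and log2 ratios of single genes a pseudocount of 1 UMI per library. Calls needed 200 UMIs and a log2 ratio of 0.32. The arithmetic was tested on simulated data. Alternatives were another scaling, other totals, averaging over cells, cell filters, thinning to 1000 UMIs, other minimums, pseudocounts and fold limits, and female WT cells. Female WT cells were WT cells with the X-inactivation transcript and no Y-linked UMI, set against rd10 cells that were not filtered in this way. The filter on a mitochondrial share between 2% and 10% and the depth range of 5000 to 10000 UMIs were chosen after seeing the data.

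The genes and lists were chosen with earlier results of these data known. Named genes were the paralogues and their parents, the stalk genes, Rpsa, Rps27a and Rps6, the 4 highest and 4 lowest in MG-like cells and the 2 highest and 2 lowest in each other main class for both comparisons, the 5 with the widest range across WT classes, and called genes of the other lists, up to 5 per list. Genes whose share within the family shifted in 5 or more clusters, such as Rpl13, were added afterwards. Cells were not treated as replicates, and the test over cells used by the authors was not run here. No p-value was computed. A result for 1 listed gene outside the family is not reported here.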

Additional observations from a re-analysis of the deposited data

Results flagged for a closer look

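The summed family was higher in rd10-vehicle than in WT in MG-like cells (0.22) but lower in 3 clusters, each beyond its counting interval. The log2 ratio was -0.087 in cluster 7 (-0.11 to -0.06), -0.095 in cluster 8 (-0.12 to -0.07), both OFF cone bipolar-like, and -0.12 in cluster 10 (-0.15 to -0.10). The difference between these clusters and MG-like cells was not tested, since each group is 1 library. With each cell thinned to 1000 UMIs the ratio of cluster 7 was 0.0082.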

How the results depend on the processing

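No paired analysis was possible because each group is 1 library and no replicate could be left out. Depth limits the rare genes, such as Rpl39l with 15 UMIs. In MG-like cells the summed rd10-vehicle over WT log2 ratio of 0.22 stayed positive under all alternatives. It was 0.26 with median-of-ratios size factors, 0.24 without the family in the totals, 0.24 as a mean over cells, 0.24 in cells with 1000 genes, 0.33 at a mitochondrial share of 10% or less, 0.35 with female WT cells, 0.20 at a mitochondrial share between 2% and 10%, and 0.17 in cells with 5000 to 10000 UMIs. The rd10-TMB over rd10-vehicle ratio of 0.11 also stayed positive, at 0.14, 0.12, 0.14, 0.11 and 0.10 under the first 5 of these, 0.12 with totals without mitochondrial genes, 0.15 after thinning, 0.10 at the share between 2% and 10%, and 0.057 at 5000 to 10000 UMIs. The number of clusters with a higher family share was 8 to 10 for rd10-TMB over rd10-vehicle and 5 to 7 for rd10-vehicle over WT.

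Over the 5 main classes, 50 of 400 gene and class pairs (12.5%) were called higher in rd10-vehicle than in WT, beside 11.1% of pairs over all genes. The count was 97 of 400 as a mean over cells (24.2%, all genes 13.9%), 33 of 396 in cells with 1000 genes (8.33%, 10.6%), 89 of 384 after thinning (23.2%, 16.4%), 96 of 398 with female WT cells (24.1%, 13.1%), 24 of 399 at a mitochondrial share between 2% and 10% (6.02%, 11.2%), and 4 of 400 with a 1.5-fold limit (1%, 4.05%). The family's share thus lay above that of all genes under some alternatives and below it under others. Called lower were 0, and 10 in cells with 1000 genes, 2 at a mitochondrial share of 10% or less, 1 at a share between 2% and 10% and 1 with a minimum of 50 UMIs. For rd10-TMB over rd10-vehicle 22 of 400 (5.5%, all genes 3.23%) were called higher, and 1 with a 1.5-fold limit (0.25%, all genes 0.306%). The count was 15 with median-of-ratios size factors (3.75%, 3.07%), 17 as a mean over cells (4.25%, 4.43%) and 31 of 391 after thinning (7.93%, 5.17%). It was 23 of 405 with a minimum of 50 UMIs (5.68%, 8.1%) and 20 of 392 with a minimum of 500 UMIs (5.1%, 1.86%). Here too the family's share lay above that of all genes under some settings and below it under others. Called lower were 0, and 2 after thinning. Signs turned for rod-like cells, rd10-vehicle over WT (-0.17, cells with 1000 genes), ON cone bipolar-like cells, rd10-TMB over rd10-vehicle (-0.019 as a mean over cells and -0.016 after thinning), amacrine-like cells, rd10-vehicle over WT (-0.024 at a mitochondrial share of 10% or less and -0.044 between 2% and 10%), endothelial-like cells (-0.019 and -0.016 under these filters) and cluster 7 (0.0082 after thinning). The cause was not tested. No called ratio of the 78 named gene values turned sign, but 10 of the 22 calls among them fell below the limit under at least 1 alternative.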

Other observations

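Small classes that entered no comparison had the following family shares, each from under 40 cells per library. The 18 lens-like cells of rd10-vehicle had 9.61% and the 19 of rd10-TMB 11.8%, but the order was the opposite for the median cell (9.73% and 5.75%) and after thinning to 1000 UMIs (9.51% and 7.86%), with median UMIs of 20634 and 3556. Pigment epithelium-like cells had 2.67% in WT (13 cells), 4.48% in rd10-vehicle (35 cells) and 3.52% in rd10-TMB (16 cells). Pericyte-like cells had 7.55%, 8.77% and 7.4% in WT, rd10-vehicle and rd10-TMB, with 20, 25 and 22 cells. The 9 cells of cluster 20, all from rd10-vehicle, had 15.2%.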
